A study of Mus musculus with 6 samples.

Results

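Peroxisome genes were compared between interscapular brown adipose tissue, the heat-producing fat between the shoulder blades, and epididymal white adipose tissue, a fat store of the abdomen. The set held 34 genes chosen by symbol: 13 biogenesis factors, which build the organelle, and 21 enzymes, transporters and membrane proteins. Every gene had at least 1 probe set, 68 in all, among the 45037 non-control probe sets of the array. Both tissues came from untreated male C57BL/6 mice aged 10 to 12 weeks at ambient temperature. Per the series' design text both tissues were dissected from 3 mice, giving 3 brown and 3 white samples that share animals. Every sample had an Affymetrix mouse 430_2 array to itself. A probe set on it is a group of short probes for the same transcript, with a detection call of present, marginal or absent. Which brown and white samples share a mouse is not stated, so the 6 arrays were compared without pairing. Because brown fat was always interscapular and white fat always epididymal, fat type and body site cannot be told apart.

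Peroxisomes are small organelles bounded by a single membrane. They shorten very-long-chain, branched-chain and dicarboxylic fatty acids, carry out the first steps of ether lipid synthesis and break down hydrogen peroxide. Their enzymes are made in the cytosol and imported folded through the peroxin (Pex) machinery. In brown fat, peroxisomes multiply on cold exposure and lie close to mitochondria and lipid droplets.

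The labelled tissues carried their defining markers. The array data were preferred because of these marker directions, so this is no independent check of the labels. All 10 brown adipocyte markers were higher in brown, with summed signals of 44539 to 46299.8 on the brown arrays and 418 to 628 on the white arrays, and Ucp1, Dio2, Kcnk3 and Otop1 were called absent on all white arrays. All 7 white adipocyte markers were higher in white, with sums of 1442 to 1521 in brown and 31775 to 33298 in white, and Agt and Tcf21 were called absent on all brown arrays. Of 4 tested markers of both adipocyte types, 2 were higher in white, 0 were higher in brown and 2 were not called. Their summed signal was 34875 to 35817 in brown and 39846 to 40607 in white. Markers of other cells also differed. The 9 macrophage markers were all higher in white (summed signal 2893 to 3404 in brown, 18686 to 19472 in white), as were the 7 mesothelial markers (261 to 305 against 3445 to 3539, with 5 absent on all brown arrays) and the 6 fibroblast markers (8850 to 9659 against 34129 to 34861). Of 7 endothelial markers 4 were higher in white (2144 to 2309 against 2873 to 3007), and Ighm was higher in white and the only tested lymphocyte marker of 4 (228 to 318 against 4667 to 5591). Of 4 tested skeletal muscle markers 3 were higher in brown (sum of all 6 listed, 1222 to 1672 against 637 to 796). In whole tissue, fewer cells of a type and less RNA per cell cannot be told apart, and the part of these other cells in the results below was not tested. Probe sets called present made up 35.6% to 37.5% of the brown arrays and 45.2% to 45.8% of the white arrays, and the ratio of 3′ to 5′ actin signal, which rises as RNA degrades, was 1.36 to 2.24 in brown and 1.19 to 1.73 in white.

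Most of the peroxisome genes that could be tested were higher in brown fat. A gene was tested if 3 or more of the 6 arrays called its probe set present, and called higher in a tissue if the adjusted p of limma, over all 10264 genes tested, was under 0.05. Of the 34 genes 31 were tested: 19 were higher in brown, 5 were higher in white and 7 were not called. Over all genes tested 61% were called, 28.2% towards brown and 32.7% towards white, while the peroxisome genes were called in 61.3% and 16.1% of cases. At least 2-fold differences were seen in 9 genes towards brown (29.0%) and 2 towards white (6.45%), against 10.9% and 14.4% of all genes tested. The median log2 difference (brown minus white) was 0.68 over the 31 genes and −0.04 over all genes tested.

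**Figure D1:**
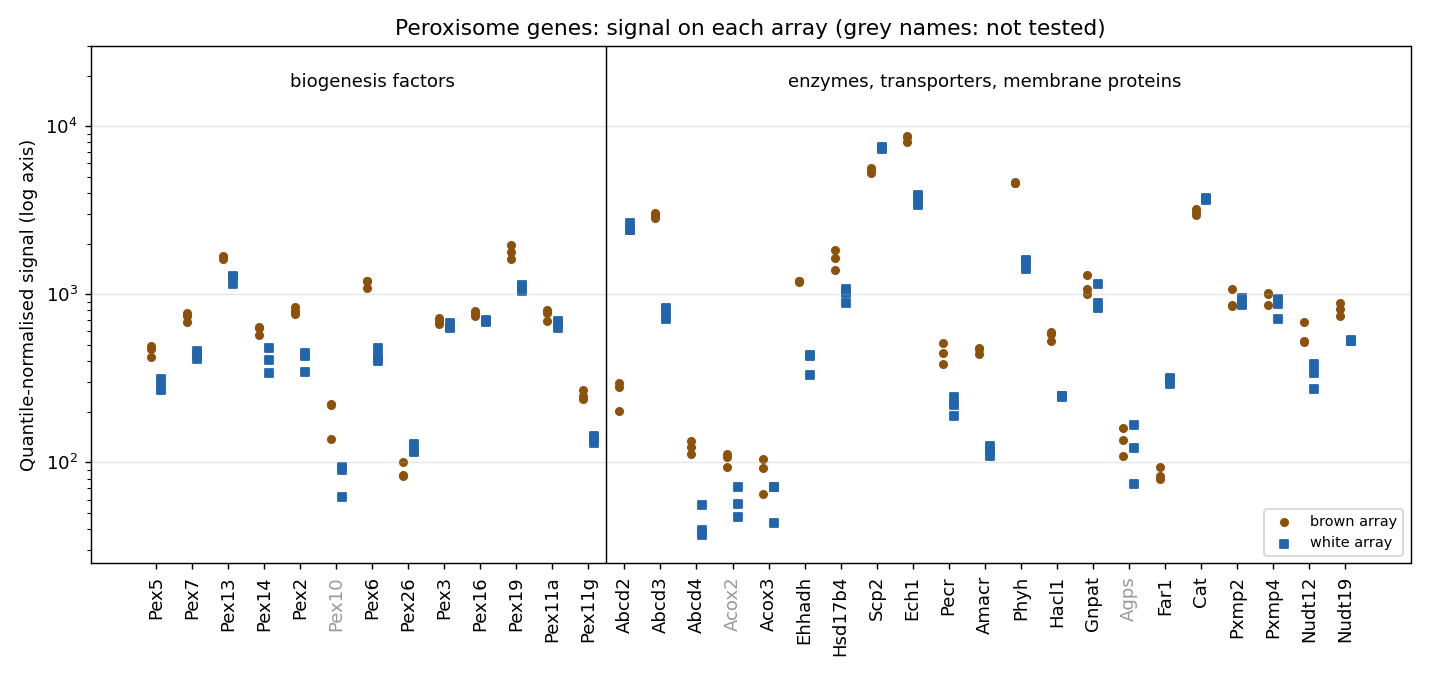
Quantile-normalised signal (log axis) of each peroxisome gene on each array, 3 brown (circles) and 3 white (squares), with the 3 untested genes named in grey. The brown arrays lie above the white arrays for most genes, while Abcd2 and Far1 lie far lower in brown.

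The 3 untested genes were Pex10, Acox2 and Agps, which had no present call on any array. Another 28 of the 34 were present on all 6 arrays. Of these, 17 were higher in brown and 5 in white, beside 33.4% and 31.9% of the 7565 genes that pass that stricter filter. Abcd4 passed the filter only through its brown arrays, Pecr was present on 3 brown and 2 white arrays, and Acox3 on 2 brown and 3 white. The balance of calls depended on the scaling between arrays, since the median deposited signal was 37.6 to 39.4 on the brown arrays and 52.1 to 52.5 on the white arrays. With the deposited scaling 16 genes were called towards brown and 8 towards white, beside 15% and 56.1% of all genes tested. After scaling to spike-in controls the counts were 12 and 5, beside 13.4% and 52.1%, and after median centring of the arrays 24 and 3, beside 27.8% and 32.7%. The deposited and spike-in scalings moved the median of all genes to −0.50, with 0.24 for the peroxisome genes. The gap between the medians of the peroxisome genes and of all genes tested was 0.72 after quantile normalisation and 0.73 with the other 3 scalings, which differ from each other by a constant per array and so share this gap by construction.

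**Figure D2:**
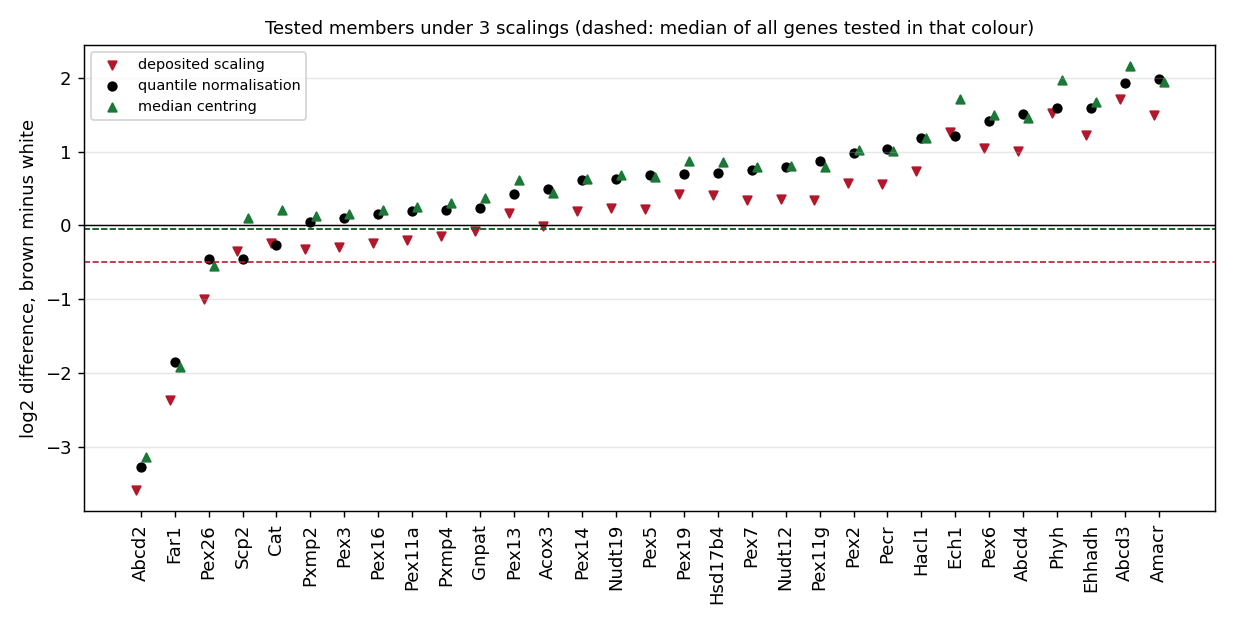
Log2 difference (brown minus white) of the 31 tested genes after quantile normalisation, with the deposited scaling and with median centring, ordered by the first. Dashed lines give the median of all genes tested, −0.04, −0.50 and −0.05. With the deposited scaling most points lie lower, and Pex3, Pex16, Pex11a, Acox3, Gnpat, Pxmp2 and Pxmp4 lie below 0. Scp2 and Cat lie above 0 only under median centring among these 3 scalings.

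Among the biogenesis factors 8 of the 12 tested were higher in brown (66.7%), Pex26 was higher in white (8.33%) and the other 3 missed the threshold. Over all genes tested the shares were 28.2% and 32.7%. Their log2 differences ran from −0.45 to 1.42 with a median of 0.64. The differences were mostly under 2-fold, and only Pex6 passed that size. With spike-in scaling 3 of the 12 were called towards brown and 1 towards white, and with the deposited scaling 6 and 3, beside the shares of all genes given above for these scalings, so the calls of the smaller differences hang on the scaling.

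Both cargo receptors of peroxisomal import were higher in brown. Pex5 recognises the C-terminal targeting signal that most matrix enzymes carry. Its signals were 475, 494 and 425 on the brown arrays and 268, 289.7 and 313 on the white arrays. Every brown array lay above every white array, and the log2 difference was 0.68 (SE 0.10, adjusted p = 0.000287), though 0.22 with the deposited scaling (adjusted p = 0.0875). Pex7 recognises the N-terminal signal, which the alpha-oxidation enzyme Phyh and the ether lipid enzyme Agps carry. It read 739, 686 and 776 in brown and 460.4, 413 and 432 in white, without overlap, a log2 difference of 0.75 (SE 0.09, adjusted p = 3.7e-05).

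The docking proteins Pex13 and Pex14, which receive loaded receptors at the membrane, were also higher in brown. Pex14 had signals of 642, 572 and 633 in brown and 406, 477 and 338 in white. Its arrays did not overlap, and its log2 difference was 0.61 (SE 0.13, adjusted p = 0.00194), against 0.19 (adjusted p = 0.169) with the deposited scaling. For Pex13 the brown arrays gave 1679, 1613 and 1670.5 and the white arrays 1287, 1274 and 1145, a log2 difference of 0.42 (SE 0.07, adjusted p = 0.000347). The arrays did not overlap, and this was the smallest log2 difference among the biogenesis factors called towards brown.

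Pex2 and Pex10 are RING-finger ubiquitin ligases that mark the receptor for its return to the cytosol. Pex2 read 797, 760.3 and 842 in brown and 431, 343 and 445 in white, and the lowest brown array stood well above the highest white array. Its log2 difference was 0.98 (SE 0.11, adjusted p = 2.99e-05). Pex10 was not tested. Its untested signals, 221, 220.1 and 138 in brown and 93.9, 89.9 and 62.0 in white, did not overlap.

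Export of the marked receptor needs the ATPase Pex6 and its membrane anchor Pex26, and Pex6 was higher in brown while Pex26 was narrowly called towards white. Pex6 had the largest difference of the biogenesis factors. Its signals were 1190.5, 1082 and 1199 on the brown arrays and 420.1, 479 and 400.1 on the white arrays, a 2.68-fold difference (log2 1.42, SE 0.09, adjusted p = 5.09e-07). All 5 tested probe sets of Pex6 were called towards brown, with log2 differences of 0.65 to 1.44. Pex26 read 83.0, 101 and 83.5 in brown and 129, 120.0 and 115 in white. Its arrays did not overlap, but the log2 difference of −0.45 (95% confidence interval −0.80 to −0.10) passed the threshold narrowly (adjusted p = 0.0294). With any array other than brown replicate 2 left out, the adjusted p of Pex26 was 0.0540 to 0.0972, without the detection filter it was 0.0550 and with the replicate number as a block 0.0551.

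Of the factors that place proteins in the peroxisomal membrane, Pex19 was called by its brightest probe set, while Pex3 and Pex16 were not. Pex19, the soluble chaperone that carries membrane proteins, read 1967, 1790.2 and 1615 in brown and 1134, 1045 and 1123 in white, and the tissues were well apart, with a log2 difference of 0.70 (SE 0.08, adjusted p = 4.03e-05). Its further probe sets, at 0.22 and 0.14, were not called. Its docking partner Pex3 overlapped between the tissues, at 693 ± 28.8 in brown and 648 ± 25.2 in white (SD, n = 3 arrays each here and below), a log2 difference of 0.10 (95% confidence interval −0.07 to 0.27, adjusted p = 0.301). Another probe set of Pex3 was called towards brown, with 720 ± 99.4 in brown, 438 ± 37.8 in white and no overlap (log2 0.71, adjusted p = 0.000572 over all probe sets). Pex16, a membrane receptor for Pex3, was 766 ± 24.7 and 691 ± 8.03, with no overlap but a log2 difference of 0.15 that missed the threshold (95% confidence interval −0.01 to 0.31, adjusted p = 0.0936). With the deposited scaling Pex3 and Pex16 lay at −0.29 and −0.24 and were called towards white.

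Peroxisomes divide with the help of the Pex11 membrane proteins. Pex11g was higher in brown, at 249, 271 and 237 against 139.7, 129.7 and 144, with no overlap and a log2 difference of 0.87 (SE 0.12, adjusted p = 0.000127). Pex11a, a known target of the fatty acid receptor PPAR-alpha, had 808, 692 and 774 in brown and 671, 694 and 627 in white. The second brown array lay within the white range, and the log2 difference of 0.19 was not called (adjusted p = 0.0812). Another probe set of Pex11a, with 695 ± 12.9 in brown and 430 ± 49.3 in white, did pass the threshold (log2 difference 0.70, adjusted p = 0.000181 over all probe sets), so its readings disagree.

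**Figure D3:**
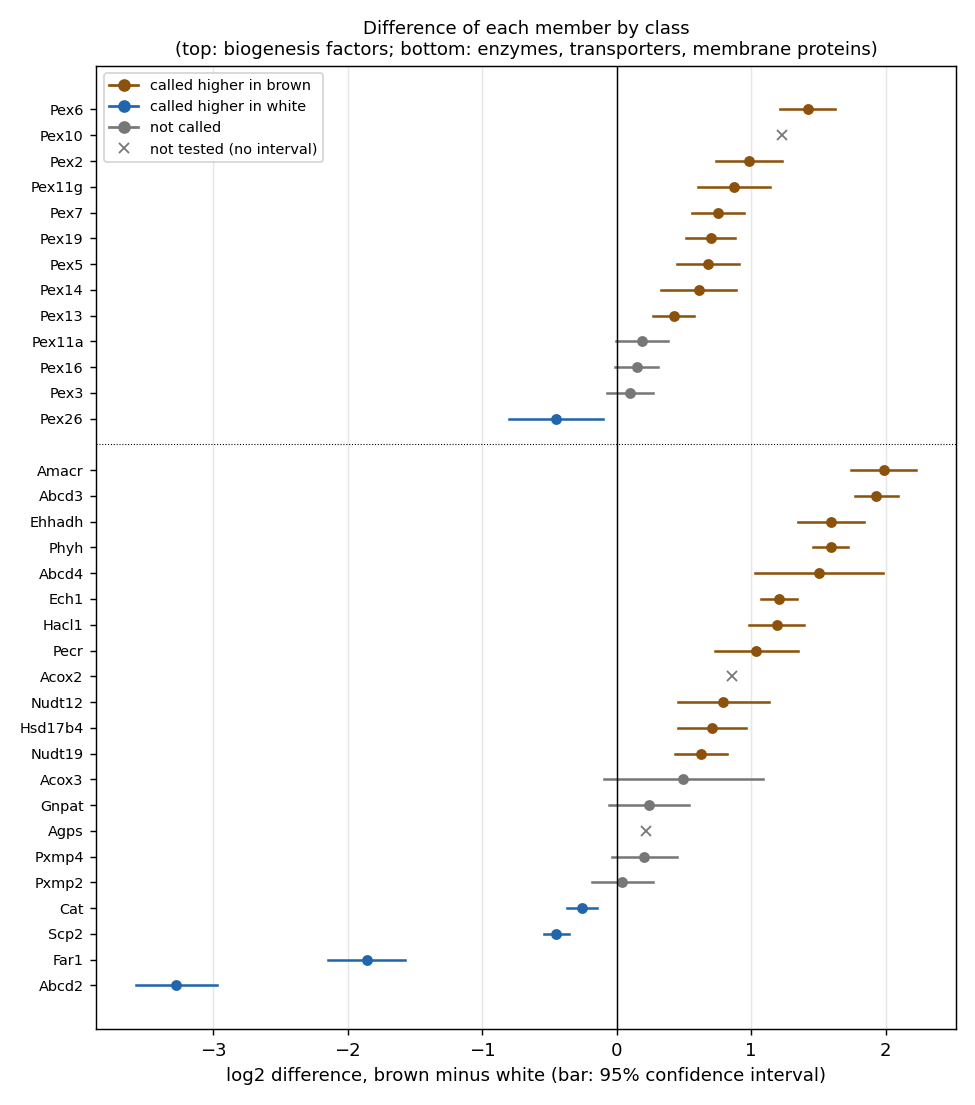
Log2 difference (brown minus white) of each gene by class, with bars for the 95% confidence interval of limma and crosses for the 3 untested genes. The biogenesis factors span −0.45 to 1.42, and the enzymes, transporters and membrane proteins span −3.27 to 1.98.

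The enzymes, transporters and membrane proteins spread more widely than the biogenesis factors. Of 19 tested, 11 were higher in brown (57.9%), 4 were higher in white (21.1%) and 4 were not called. Differences of at least 2-fold numbered 8 towards brown (42.1%) and 2 towards white (10.5%), beside 10.9% and 14.4% of all genes tested. Log2 differences ran from −3.27 to 1.98 with a median of 0.71, close to the 0.64 of the biogenesis factors. The difference between the classes was not tested.

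The 3 transporters of the ABCD family all differed, but not in the same direction. Abcd2 imports very-long-chain and polyunsaturated acyl-CoAs and had the largest difference of the whole set. Its signals were 298, 202 and 281 on the brown arrays and 2396, 2665 and 2394 on the white arrays. The lowest white array was far above the highest brown array, a 9.68-fold difference towards white (log2 −3.27, 95% confidence interval −3.58 to −2.97, adjusted p = 2.46e-08). The 3 tested probe sets of Abcd2 gave log2 differences of −3.39, −3.27 and −3.15, all called towards white. The probe set at −3.15 was called absent on all brown arrays and passed the detection filter only through its white arrays. Abcd3, also known as PMP70, imports branched-chain, bile acid precursor and dicarboxylic acyl-CoAs and ran the other way. It read 3039, 2957 and 2822 in brown and 708, 822 and 783 in white, a 3.82-fold difference towards brown (log2 1.93, SE 0.07, adjusted p = 1.17e-08).

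Abcd4, a family member known in human cells to carry cobalamin out of lysosomes rather than acyl-CoA into peroxisomes, was called absent on all 3 white arrays. It read 123, 134 and 113 in brown and 39.6, 55.9 and 36.9 in white. Brown exceeded white by at least 2.84-fold (adjusted p = 0.000155), a lower bound because of those absent calls.

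Among 7 tested genes grouped under peroxisomal beta-oxidation, 5 were higher in brown, Scp2 was higher in white and Acox3 was not called. The shares were 71.4% and 14.3%, beside 28.2% and 32.7% of all genes tested. The group counts Pecr, although its reductase belongs to chain elongation. Ehhadh, the L-bifunctional protein, which acts on dicarboxylic and other long acyl chains, read 1202, 1183 and 1196 in brown and 331, 427 and 436 in white. The brown arrays were nearly equal and all well above the white ones, a 3.02-fold difference (log2 1.59, SE 0.11, adjusted p = 8.16e-07). Hsd17b4, the D-bifunctional protein, which handles branched and very long chains, was higher by a smaller margin. Its signals were 1645, 1844 and 1385 in brown and 1012, 881 and 1078 in white, with no overlap and a log2 difference of 0.71 (SE 0.11, adjusted p = 0.000342).

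Amacr and Ech1, auxiliary enzymes that prepare branched and unsaturated chains, and Pecr were each higher in brown by more than 2-fold. Amacr, the racemase that turns branched-chain acyl-CoAs into the form the oxidases accept, had 475, 439.9 and 474 in brown and 117, 109 and 125 in white. The groups were far apart, by 3.96-fold (log2 1.98, SE 0.11, adjusted p = 1.82e-07), the largest difference towards brown of the set. Ech1, a dienoyl-CoA isomerase found in both peroxisomes and mitochondria, read 8696, 8091 and 8648 in brown and 3769, 3894 and 3372 in white, a 2.31-fold difference (log2 1.21, SE 0.06, adjusted p = 9.11e-08). Pecr, a trans-2-enoyl-CoA reductase of chain elongation, had 510.4, 444 and 383 against 188, 244 and 218. Its brown arrays varied more but did not overlap the white arrays, and the difference was 2.06-fold (log2 1.04, SE 0.14, adjusted p = 0.000109).

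Neither of the branched-chain acyl-CoA oxidases was called. Acox3 read 104, 64.8 and 92.7 in brown and 71.3, 71.3 and 43.8 in white. These arrays overlapped, and the log2 difference of 0.50 had a 95% confidence interval of −0.09 to 1.09 (adjusted p = 0.129). Acox2 was called absent on all 6 arrays and was not tested. Its signals were 93.6, 108 and 112 in brown and 47.4, 56.4 and 71.1 in white.

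Scp2 encodes both the peroxisomal thiolase SCPx and sterol carrier protein 2 from separate start sites. Its brightest probe set read 5647, 5266 and 5447 in brown and 7431, 7537 and 7349.7 in white. Every white array was above every brown array, a 1.36-fold difference towards white (log2 −0.45, SE 0.04, adjusted p = 9.4e-06). Under median centring the same probe set lay at 0.10 (adjusted p = 0.0730), and the mean of its probe sets lay at 0.05. Of its 4 tested probe sets, 2 were called towards white (log2 −0.45 and −0.33) and 2 towards brown. The latter had 409 ± 99.5 against 270 ± 61.4 (log2 0.60, adjusted p = 0.0254 over all probe sets) and 757 ± 90.2 against 578 ± 94.1 (log2 0.39, adjusted p = 0.0250), each with overlapping arrays. The direction for Scp2 therefore depends on the probe set read.

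Both tested enzymes of alpha-oxidation, the pathway that removes a single carbon from methyl-branched acids such as phytanic acid, were higher in brown. Phyh, the phytanoyl-CoA hydroxylase, read 4642, 4599 and 4559 in brown and 1417, 1604 and 1565 in white. Its brown arrays were nearly equal, and the difference was 3.01-fold (log2 1.59, SE 0.06, adjusted p = 1.18e-08). Hacl1, the lyase of the next cleavage step, had 526, 578 and 593 in brown and 248, 248 and 245 in white, 2.28-fold apart (log2 1.19, SE 0.09, adjusted p = 1.98e-06). Amacr and Abcd3, which act on the same branched acids, lay at 1.98 and 1.93 as given above.

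Genes of ether lipid synthesis, which yields plasmalogens, did not follow that direction. Far1, the reductase that supplies the fatty alcohol, read 79.1, 94.1 and 82.3 in brown and 315, 294 and 315 in white. The tissues were far apart, by 3.63-fold towards white (log2 −1.86, SE 0.13, adjusted p = 8.86e-07). Its 4 tested probe sets gave log2 differences of −2.33, −1.86, −1.47 and −0.73, all called towards white. Those at −2.33 and −1.47 were called absent on all brown arrays and passed the detection filter only through their white arrays. Gnpat, the acyltransferase of the first step, read 1300.2, 1071 and 999.6 in brown and 882, 1153 and 831 in white. These arrays overlapped, with a log2 difference of 0.24 that was not called (95% confidence interval −0.06 to 0.54, adjusted p = 0.148). Agps, which exchanges the acyl chain for the alcohol, was called absent on all arrays, with 109, 135 and 160.1 in brown and 121, 166 and 74.7 in white, overlapping.

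Catalase (Cat), which breaks down the hydrogen peroxide made by the oxidases, was slightly higher in white after quantile normalisation. It read 2952, 3198 and 3091 in brown and 3753, 3690.4 and 3610.4 in white. The groups did not overlap, and the difference was 1.20-fold (log2 −0.26, SE 0.05, adjusted p = 0.00137). Under median centring Cat was called towards brown instead (log2 0.21, adjusted p = 0.00711), so its direction hangs on the scaling.

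The Nudix hydrolases were higher in brown. Nudt12, which cleaves NADH, read 518, 682 and 524 in brown and 271, 339 and 386 in white, a log2 difference of 0.79 (SE 0.15, adjusted p = 0.00120), though 0.35 (adjusted p = 0.0575) with the deposited scaling. Nudt19, which cleaves coenzyme A, read 739, 891 and 816 against 531, 525 and 523 (log2 0.63, SE 0.09, adjusted p = 0.000139). Both pairs of groups were free of overlap.

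The membrane proteins Pxmp2, which forms a channel for small solutes, and Pxmp4 were not called. Pxmp2 was 930.2 ± 129.8 in brown and 899 ± 48.9 in white, and its log2 difference of 0.04 had a 95% confidence interval of −0.18 to 0.27 (adjusted p = 0.743). Pxmp4 was 962 ± 82.5 and 837 ± 112, with a log2 difference of 0.21 and an interval of −0.04 to 0.45 (adjusted p = 0.128). Both overlapped between tissues.

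Several genes were read by more than 1 tested probe set, which allows a check within the gene. Of 15 such genes, 8 had all probe sets called in the same direction, 5 had some called and some not, Scp2 had calls both ways and Pxmp4 had none. The 8 include Abcd2 and Far1, for which some probe sets passed the detection filter only through the white arrays. The 5 with partial calls were Pex2, Pex3, Pex11a, Pex13 and Pex19. For Pex3 and Pex11a the brightest probe set was not called and another was. Conversely, the further probe sets of Pex2 (log2 0.16), Pex13 (−0.01) and Pex19 were not called. Such agreement within a gene was not counted over all genes, so whether it is usual was not tested. Over the 55 tested probe sets of the set, 31 were called towards brown and 12 towards white, beside 24.6% and 29.9% of the 19819 probe sets tested.

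**Figure D4:**
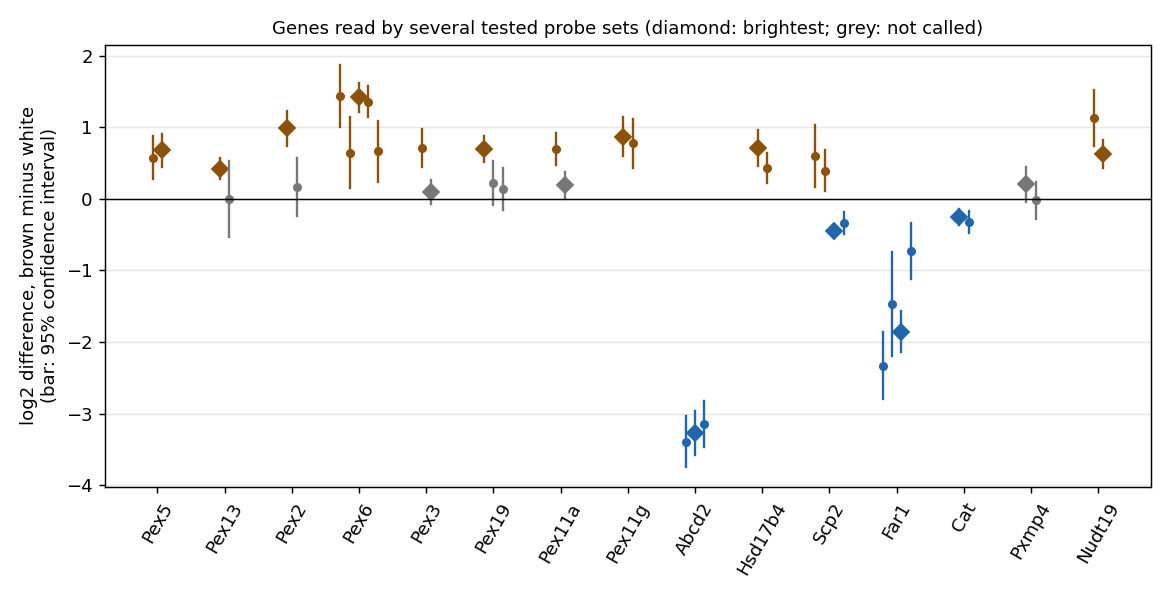
Log2 difference (brown minus white) of every tested probe set of the 15 genes with more than 1, with 95% confidence intervals, the brightest as a diamond and uncalled ones in grey. Probe sets of Abcd2, Far1 and Pex6 stay on the same side of 0, while those of Scp2 fall on both.

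Many peroxisomal enzyme genes are known targets of PPAR receptors, which bind with their partner RXR to a direct repeat of the hexamer AGGTCA with a 1-base spacer, AGGTCANAGGTCA. Promoter windows of 300 bases, 250 before to 50 after the annotated start (RefSeq, GRCm38.p6), were searched on both strands. They covered 26 of the 34 genes, 31 windows in all. For the set, windows on 1 chromosome were left out, while the windows of all genes and of tested genes kept it. No window held the repeat exactly, against 0.0396% of 32841 windows of all genes. With up to 2 mismatches it was in 2 windows (6.45%), those of Cat and the untested Acox2, against 3.86% of all windows and 2.86% of those of tested genes. The single hexamer was in 4 windows (12.9%), against 16.3% of all windows and 12.7% of those of tested genes, and the exact repeat contains the hexamer, so the searches overlap. The 4 windows with the hexamer are printed because no other of the 31 windows searched holds it. Phyh and Pex11g were called towards brown, while the direction of Cat depends on the scaling and that of Scp2 on the scaling and the probe set, as given above. Capitals mark the hexamer, as TGACCT where it lies on the opposite strand, and in Cat the whole imperfect repeat AGGTCAGAGAACA, which begins 204 bases before the start. The hexamer begins 173 bases before the start in Pex11g, 109 before in Scp2 and 36 after in Phyh. A match describes letters only.
Phyh, chr2:4918746-4919045, plus strand: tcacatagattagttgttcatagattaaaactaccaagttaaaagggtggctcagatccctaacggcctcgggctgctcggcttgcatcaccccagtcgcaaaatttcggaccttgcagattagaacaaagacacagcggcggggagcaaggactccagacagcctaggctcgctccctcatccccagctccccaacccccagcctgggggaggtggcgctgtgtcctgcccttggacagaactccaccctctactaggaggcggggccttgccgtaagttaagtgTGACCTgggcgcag
Pex11g, chr8:3467599-3467898, minus strand: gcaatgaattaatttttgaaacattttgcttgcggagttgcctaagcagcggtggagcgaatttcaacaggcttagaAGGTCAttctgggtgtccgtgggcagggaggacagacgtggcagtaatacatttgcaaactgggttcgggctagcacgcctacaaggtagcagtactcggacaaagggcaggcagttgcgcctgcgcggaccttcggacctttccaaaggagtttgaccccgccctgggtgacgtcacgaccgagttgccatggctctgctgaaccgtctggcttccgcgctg
Cat, chr2:103485104-103485403, minus strand: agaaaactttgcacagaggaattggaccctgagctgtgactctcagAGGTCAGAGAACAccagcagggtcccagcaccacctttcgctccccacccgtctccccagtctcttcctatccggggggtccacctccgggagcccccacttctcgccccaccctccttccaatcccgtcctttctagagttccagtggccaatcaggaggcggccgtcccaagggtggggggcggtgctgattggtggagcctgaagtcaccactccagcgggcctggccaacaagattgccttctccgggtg
Scp2, chr4:108118498-108118797, minus strand: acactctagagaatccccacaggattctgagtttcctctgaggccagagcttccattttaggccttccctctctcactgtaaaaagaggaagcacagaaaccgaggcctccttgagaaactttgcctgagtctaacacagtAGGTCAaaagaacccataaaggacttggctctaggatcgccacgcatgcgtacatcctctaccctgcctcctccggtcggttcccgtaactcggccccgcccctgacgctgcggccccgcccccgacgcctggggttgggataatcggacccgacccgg

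The median GC content of the 31 windows was 57.3%, against 52.7% of all windows and 60.7% of those of tested genes. Their median ratio of observed to expected CpG was 0.76, against 0.38 and 0.75. In these measures the peroxisome genes lay close to the other genes tested. The 34 genes lie on 16 chromosomes.

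Other genes, taken from a list of 57 linked to the organelle, mostly ran towards brown as well. The list is not limited to proteins found only in peroxisomes, so its shares do not describe peroxisomes alone. Of the 37 tested, 30 were higher in brown (81.1%), 2 were higher in white (5.41%) and 5 were not called, beside the 28.2% and 32.7% of all genes tested, and the median log2 difference was 0.75. With spike-in scaling 18 and 5 were called, beside 13.4% and 52.1% of all genes. Slc27a2, an acyl-CoA synthetase of very-long-chain fatty acids, had 1890.1 ± 106 in brown and was called absent on all white arrays. It therefore passed the detection filter only through its brown arrays. With white signals raised, where lower, to the lowest present signal of their array, brown was 183-fold higher. Without that step the log2 difference was 7.95 (SE 0.71, adjusted p = 5.72e-06). The fold is a bound only with regard to the absent calls, and the spread between arrays allows smaller values. Ddo, the D-aspartate oxidase, had 731 ± 99.7 in brown and 67.4 ± 24.7 in white (log2 3.49, adjusted p = 5.46e-07). Tysnd1, the protease that trims imported enzymes, had 834 ± 82.9 and 253 ± 14.8 (log2 1.72, adjusted p = 2.77e-07). Acsf3, listed here but better known as a mitochondrial malonyl-CoA synthetase, had 431 ± 64.9 and 71.3 ± 9.52 (log2 2.59, adjusted p = 3.85e-07). The 2 genes higher in white were Xdh, the xanthine dehydrogenase of purine breakdown, with 588 ± 18.9 and 1612 ± 41.2 (log2 −1.45, adjusted p = 4.59e-08), and Idh1, an NADPH-producing isocitrate dehydrogenase, with 3451 ± 123 and 4384 ± 254 (log2 −0.34, adjusted p = 0.000452).

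**Figure D5:**
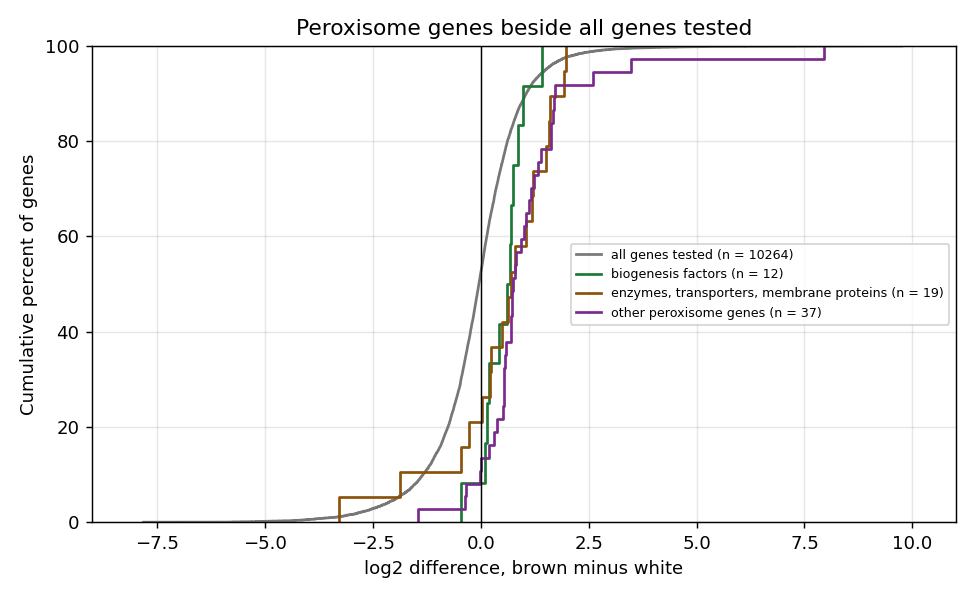
Cumulative percent of genes by log2 difference (brown minus white) for all 10264 genes tested, the 12 biogenesis factors, the 19 enzymes, transporters and membrane proteins, and 37 other peroxisome genes. The peroxisome curves lie to the right of that of all genes over most of the range, with medians of 0.64, 0.71 and 0.75 against −0.04, and that of the enzymes has a tail to −3.27.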

How the data were processed

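Per the file headers, the deposited array files hold, for each probe set, a linear signal intensity with a detection call and its p-value. The software and scaling were not given in the sources used here. Gene symbols came from the platform annotation: 34945 of 45037 probe sets had 1 symbol, 932 several and 9160 none, and 64 control probe sets were left out. The members and gene lists were chosen with earlier results of these data known. The 34 genes were matched by current or older symbol. All of them are named, with full values for differences of at least 2-fold and for both ends of each class, and values of the others by role.

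The 1 signal of exactly 0 was set to 0.1, and the log2 signals were then brought to the same quantiles on all arrays. The test used limma 3.58.1 under R 4.3.3 (lmFit and trended eBayes) on the 19819 probe sets with at least 3 present calls among 6 arrays, and differences were called at 0.05 after Benjamini-Hochberg adjustment. Each gene took its tested probe set of highest mean log2 signal, and p-values were adjusted over the resulting 10264 genes, or over the probe sets where stated. Folds are ratios of geometric means, and signals of different probe sets are not compared. For a bound, each array of the dimmer tissue takes the gene's signal or, where larger, the lowest present signal of that array, and with Abcd4 and Slc27a2 at their bounds the medians stayed at 0.68 and 0.75. The fit was tested on simulated data. The number of arrays limits the precision. Same-numbered arrays did not deviate together (correlations 0.02, −0.01 and −0.05), so no replicate block was used. P-values measure the spread between these samples. Alternatives covered scaling, detection filter, an added 64 units, the variance trend, the choice of probe set, the block and leaving out each array.

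A series-wide table of linear signal intensities was deposited too, with processing not given in the sources used here. Its tissue columns run opposite to the array files, and no result rests on it. The array files were preferred since brown and white adipocyte markers run there as known for these tissues, which makes those marker directions no independent check of the labels.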

Additional observations from a re-analysis of the deposited data

How the results depend on the processing

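There were 3 arrays per tissue, and brown and white samples share mice in a way not stated. Over all settings and tested genes, 446 values kept their direction and side of the threshold, 19 lost the call, 10 gained it and 18 changed sign. Calls for brown among the 31 genes stayed at 19 to 21 with any array left out, while Pex26, the only biogenesis factor called towards white, kept its call only without brown replicate 2 (0 to 1 genes).

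With the deposited scaling 8 genes, 3 biogenesis factors and 5 of the other peroxisome genes were called towards white, with medians of 0.24 for the set, 0.20 for the biogenesis factors and 0.35 for the enzymes and transporters. The signs of Pex3 (−0.29), Pex16 (−0.24), Pex11a (−0.19), Acox3 (−0.0032), Gnpat (−0.076), Pxmp2 (−0.31) and Pxmp4 (−0.15) turned. With spike-in scaling 12 genes, 3 biogenesis factors and 18 other peroxisome genes were called towards brown and 5 of the latter towards white, with medians of 0.24, 0.20 and 0.35. The signs of the same 7 genes turned, at −0.29, −0.24, −0.19, −0.0024, −0.076, −0.31 and −0.14. With median centring 3 genes and 2 enzymes and transporters were called towards white, and Scp2 (0.10) and Cat (0.21) turned. Taking the mean of the probe sets gave medians of 0.57 and 0.51 for the set and the biogenesis factors, and turned Scp2 (0.052). Adding 64 units gave 0.58 and 0.56. Pxmp2 ranged from −0.070 to 0.10 with an array left out, negative without brown replicate 3. Without the detection filter 0 biogenesis factors were called towards white by limma. Without probe sets ending in _x_at or _s_at, 1 other peroxisome gene was. The cause of these shifts was not tested.

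With the replicate number as a block, limma called 20 genes towards brown and 4 towards white, beside 2792 and 3264 of all 10264 genes tested. Biogenesis factors called towards white then numbered 0, with Pex26 at an adjusted p of 0.0551, and Pxmp4 gained a call (adjusted p = 0.0494). Nothing states that equal numbers mean the same mouse.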

Other observations

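The authors' deposited table of signal intensities names its columns by tissue, but they run opposite to the array files. Its log2 signals correlated at 0.778 to 0.794 with the array files of the same named tissue and at 0.814 to 0.874 with those of the other tissue. The log2 differences over all probe sets correlated at −0.71. Of the 24 peroxisome genes called from the array files, 19 ran opposite in the table as named. The column medians were 62.9 to 64.3 for those named brown and 55.9 to 56.8 for those named white, and its centring stays unknown.

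With the columns exchanged, some peroxisome genes still differed in size or sign from the array files. Pex11a lay at −2.62 in the table and 0.19 in the array files, Far1 at −3.02 and −1.86, and Hacl1 at −0.21 and 1.19. Abcd2 was alike in both, at −3.63 and −3.27. These are values of the same probe sets as used above, with no test.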
